A study of Homo sapiens with 6 samples.

Results

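The genes described here are the DNA replication and G1/S genes of LNCaP cells, a list of 46 symbols that covers origin licensing, the replicative helicase, the polymerases, the sliding clamp, deoxynucleotide supply and the control of S phase entry. Members were found by their symbol in the deposited table, with older symbols allowed (ORC1L is now ORC1 and CDC45L is now CDC45). Of the 46 symbols, 45 were found, and each of the 45 had the mean count of at least 20 over the 6 libraries that was set for a measured gene. The table held 17990 genes in all, of which 11916 were measured. CCNE2 was not found by symbol; 1 line without a symbol is described in the table as cyclin E2 and is given separately.

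The series followed messenger RNA in LNCaP, a human prostate cancer line that depends on androgen, over 48 h with 10 nM dihydrotestosterone (DHT), the most active androgen made in the body. All 6 groups share a period before treatment in which, by the protocol in the labels, serum was stripped of hormones with charcoal and the medium held no phenol red. Total RNA was sequenced on an Illumina GAIIx. There was 1 untreated library at 0 h and 1 library each at 3, 6, 12, 24 and 48 h with DHT, so there is no replicate error to judge a difference by, and no test was made. No untreated library later than 0 h was used, so time in culture and DHT cannot be told apart.

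Totals ran from 13179917 to 20587956 counts per library, the largest at 24 h. Levels are CPM, counts scaled to the same total per library, and changes are log2((CPM + 1) with DHT over (CPM + 1) at 0 h). The call rule is one of size: higher or lower by 2-fold or more on that scale. Intervals of 95% on levels and ratios cover counting error only. The median change over all measured genes was -0.08 at 3 h, 0.08 at 6 h, 0.08 at 12 h, -0.09 at 24 h and -0.06 at 48 h. The LNCaP label was set against marker genes: 7 luminal prostate markers summed to 7579 to 21614 CPM per library, and 3 basal epithelial markers stayed under 1 CPM. Of 4 fibroblast markers COL1A1 stood at 31.2 to 64.3 CPM and the other 3 under 1 CPM, and of 4 leukocyte markers CD68 stood at 13.3 to 18.3 CPM and the other 3 under 1 CPM. Their part in the results was not tested. In the 12 h library genes on chromosome 4 and distal chromosome 15 stood low, with median changes of -2.14 over 389 genes and -2.76 over 165 genes, and 31 and 17 of them had 0 counts there. Their 12 h values are not used, and no measured member lies in those regions.

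Before S phase, the origin recognition complex, CDC6 and CDT1 load the ring of MCM2 to MCM7 onto DNA, a step called licensing; geminin (GMNN) binds CDT1 and stops a second loading. The kinase CDC7 with DBF4, together with cyclin E and its kinase partner, then switches the rings on with CDC45 and GINS, and polymerases, the clamp PCNA and its loader RFC copy the DNA. Many of these genes are targets of E2F transcription factors, whose activity is held back by the RB protein until the end of G1.

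Promoter sequences bear on this list because an E2F site is the best known element that its genes share. RefSeq promoters on GRCh38.p14, from 250 bases before to 50 bases after the start, were found for 40 of the 45 members (not for MCM4, MCM5, POLD3, RPA2 and RPA3). The E2F letters searched on both strands were TTTCCCGC, TTTCGCGC, TTTGCCGC and TTTGGCGC. A match was found in 19 of 40 member promoters (47.5%) and in 908 of 27305 promoters of the same length (3.33%). The CCAAT box (CCAAT) was in 47.5% of member promoters and 35.7% of all, and the GC box (GGGCGG) in 70% of member promoters and 44.6% of all. The cell cycle element TTTGAA was in 5% of member promoters and 15.4% of all. A single arm of the androgen response element, AGAACA, was in 3 member promoters (FEN1, POLD1 and GMNN, or 7.5%) and 14.9% of all. The full element, AGAACA and TGTTCT with a gap between them, was in 0 of the 40 and in 1 of all. Member promoters had a median GC content of 64.7%, against 58.3% over all promoters. A match is a description of letters and not a bound site. Only the letters listed were searched, so a promoter without a match may still hold an E2F site of other letters.

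The stretches below were chosen among members with an E2F match that carry changes described later. MCM6 was added as a further ring gene, with matches at separate places. RFC3 and POLE2, also with a match and a 2-fold call, are not shown. TK1, GMNN, CDC7, PRIM2, DBF4, RRM2, CCNE1 and ORC1L were called at some time too and had no match. E2F matches are in capitals, the rest in lower case, each read 5′ to 3′ along the gene. They lie on GRCh38.p14 at chr17:40287819-40287898 on the + strand (CDC6), chr3:48188398-48188477 on the - strand (CDC25A), chr1:23531214-23531293 on the - strand (E2F2), chr16:88803729-88803808 on the + strand (CDT1), chr3:127598351-127598430 on the + strand (MCM2), chr6:52284723-52284802 on the - strand (MCM3), chr19:48170379-48170478 on the - strand (LIG1) and chr2:135876516-135876615 on the - strand (MCM6).
CDC6: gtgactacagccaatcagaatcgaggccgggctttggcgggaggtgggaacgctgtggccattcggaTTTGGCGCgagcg
CDC25A: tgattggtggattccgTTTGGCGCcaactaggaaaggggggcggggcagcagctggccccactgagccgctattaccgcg
E2F2: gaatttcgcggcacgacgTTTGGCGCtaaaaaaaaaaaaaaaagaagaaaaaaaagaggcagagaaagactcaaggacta
CDT1: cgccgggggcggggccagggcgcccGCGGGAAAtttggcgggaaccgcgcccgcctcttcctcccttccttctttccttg
MCM2: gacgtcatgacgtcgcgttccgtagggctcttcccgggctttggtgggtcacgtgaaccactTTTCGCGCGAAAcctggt
MCM3: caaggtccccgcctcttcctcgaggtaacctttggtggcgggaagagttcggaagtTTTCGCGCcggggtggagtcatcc
LIG1: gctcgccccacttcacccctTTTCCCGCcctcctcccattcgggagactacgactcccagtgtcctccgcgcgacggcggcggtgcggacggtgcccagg
MCM6: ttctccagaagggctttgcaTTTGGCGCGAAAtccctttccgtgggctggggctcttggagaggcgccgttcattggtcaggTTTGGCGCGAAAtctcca
Counted from the first transcribed base, the match began at -44 in CDC25A, -42 in E2F2, -35 in CDT1 (on the other strand) and at 8 in CDC6 and 3 in MCM2, just inside the transcript. MCM3 had matches at -4, shown here, and at -174, outside the stretch shown. LIG1 had its match at -114. In MCM2 and at both places in MCM6 a match on each strand overlapped in the central GCGC, so the capitals there run longer. Against 0 h, the median change of the 19 members with an E2F match and of the 21 without one was 0.39 and 0.28 at 3 h, 0.13 and 0.29 at 6 h, 0.36 and 0.37 at 12 h, -0.48 and -0.42 at 24 h, and -0.24 and -0.03 at 48 h. With the trend of change over the GC content of transcripts removed, the medians at 3 h were 0.495 with a match and 0.355 without. The order turned at 6 h (0.078 with a match and -0.12 without). It also turned at 12 h (0.14 and 0.10). The medians were then -0.388 and -0.385 at 24 h and -0.25 and -0.20 at 48 h. The difference was not tested.

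As a set, the members stood above 0 h at 3 h and below it at 24 h. Their summed level was 1662 CPM at 0 h, 2085 at 3 h, 1709 at 6 h, 1722 at 12 h, 1171 at 24 h and 1249 at 48 h. The sum was highest at 3 h and lowest at 24 h. In RNA from a whole culture, fewer cells that express a gene and less of its RNA per cell cannot be told apart. At 3 h, 37 of 45 members (82.2%) lay above their 0 h level, against 39.4% of all measured genes, and the median change was 0.33. At 24 h, 36 of 45 (80%) lay below it, against 54.3% of all measured genes, and the median was -0.42. Most of these changes were smaller than 2-fold.

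By the 2-fold rule, 2 members were higher at 3 h (0.747% of all measured genes were), CDC6 and E2F2, and 0 were lower (0.864%). At 6 h, 6 members were higher (15.3% of all measured genes) and 0 lower (3.01%). At 12 h, 6 were higher (11.6%) and 0 lower (3.86%). At 24 h, 1 was higher (10.5%), CDC6, and 6 were lower (10.8%), namely TK1, MCM2, LIG1, CCNE1, CDT1 and MCM3. At 48 h, 3 were higher (15%), GMNN, DBF4 and CDC7, and 2 lower (7.33%), TK1 and ORC1L. The members' share of higher calls at 6 h and 12 h, 13.3% at both times, was near that of all genes, as was their share of lower calls at 24 h, also 13.3%. The 3 h share of 4.44% was above the background but rests on 2 genes. Over all times, 10 members were higher at least once, 7 were lower at least once, 0 were both, and 28 stayed within 2-fold throughout. Of the 11070 genes usable at all 5 times, 20.5% were higher at least once and 13.9% lower at least once, so 10 and 7 of 45 are near the background.

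**Figure D1:**
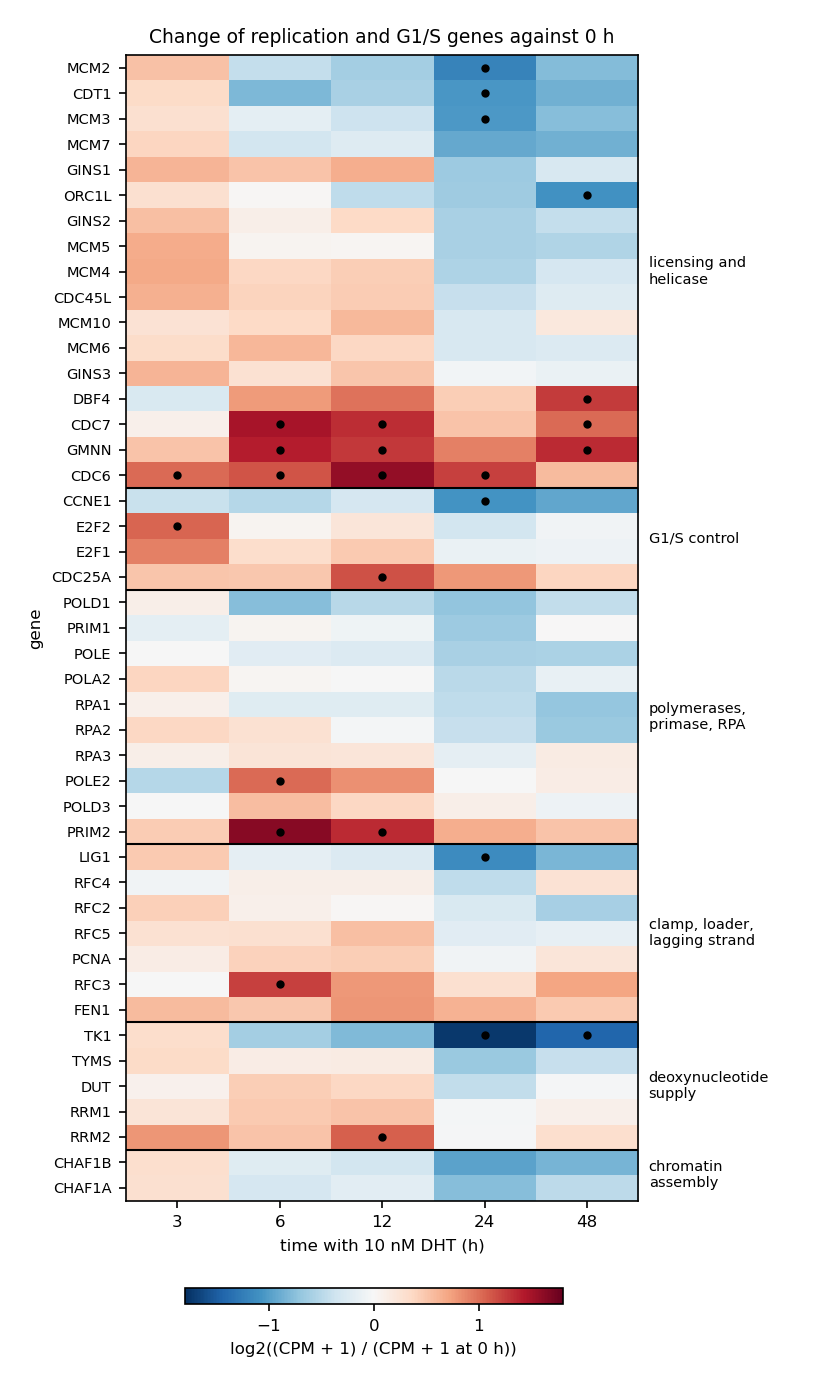
Change of each of the 45 members against 0 h (rows, grouped by role and ordered by the 24 h value) at 5 times with DHT (columns, h). Colour gives log2((CPM + 1) over (CPM + 1) at 0 h) and a black dot marks a difference of at least 2-fold. The 3 h column is mostly red and the 24 h column mostly blue, with CDC6, GMNN, CDC25A, FEN1 and PRIM2 among those red in both.

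In 22 of the 45 members the highest of the 6 libraries was the one at 3 h, in 10 the one at 6 h and in 9 the one at 12 h. The 0 h library was the highest for CCNE1 and POLE, the 48 h library for RFC4 and DBF4, and the 24 h library for none of the members. In 29 members the lowest library was the one at 24 h. For CDC6, FEN1, CDC25A, PRIM2, CDC7 and GMNN the lowest library was the untreated one. The same counts were not made over all measured genes, so whether this order is particular to the members was not tested.

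Among the licensing and helicase genes, CDC6, GMNN, CDC7 and DBF4 were called higher at some time, and MCM2, MCM3, CDT1 and ORC1L lower. Of these 17 genes, 16 lay above 0 h at 3 h (median 0.51), and 13 lay below it at 24 h (median -0.56). CDC6 (chromosome 17), the loader that brings MCM rings to the origin, had 12.0 CPM at 0 h, 25.3 at 3 h, 27.5 at 6 h, 37.9 at 12 h, 29.5 at 24 h and 18.3 at 48 h. It was past 2-fold from 3 h to 24 h and short of it at 48 h, at 0.57, with each DHT library above 0 h. The ratio was 2.11 at 3 h (95% interval 1.74 to 2.56), 3.16 at 12 h (2.64 to 3.81) and 2.46 at 24 h (2.06 to 2.95). The ratio of its 48 h to its 24 h level was 0.620 (0.536 to 0.716), or -0.66 on the log2 scale.

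CDT1 (chromosome 16), the partner of CDC6 in loading, went the other way after 3 h. It had 22.2 CPM at 0 h, 28.5 at 3 h, 12.2 at 6 h, 14.5 at 12 h, 10.2 at 24 h and 11.8 at 48 h, so that the 4 libraries from 6 h on all lay below the first 2. Its ratio at 24 h was 0.459 (0.382 to 0.550). With the GC trend removed, CDT1 stood at 0.41 at 3 h, -0.22 at 6 h, -0.11 at 12 h, -0.39 at 24 h and -0.36 at 48 h. GMNN (chromosome 6), which encodes the inhibitor of CDT1, had 10.8, 15.7, 30.3, 27.4, 21.1 and 28.9 CPM in the order of time. Each DHT library was above 0 h, with ratios of 2.82 at 6 h (2.32 to 3.43) and 2.68 at 48 h (2.22 to 3.27). ORC1L, a subunit of the origin recognition complex, had 12.9, 15.9, 13.1, 9.17, 7.92 and 5.52 CPM, lowest at 48 h with a ratio of 0.428 (0.325 to 0.559).

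The 6 genes of the MCM ring moved together at both ends of the course. Their summed level was 452 CPM at 0 h, 628 at 3 h, 420.4 at 6 h, 407 at 12 h, 248 at 24 h and 282 at 48 h. All 6 were above 0 h at 3 h, by 0.29 (MCM3) to 0.69 (MCM4), and all 6 were below it at 24 h, by -0.28 (MCM6) to -1.20 (MCM2). MCM2 (chromosome 3) had 107, 156, 79.2, 70.2, 46.2 and 62.3 CPM in the order of time, and its ratio at 24 h was 0.430 (0.396 to 0.468). MCM3 (chromosome 6) had 71.8, 88.0, 63.2, 54.96, 34.4 and 41.9 CPM, with a ratio of 0.480 at 24 h (0.435 to 0.529), just past the 2-fold line. MCM7, which hosts a cluster of microRNAs in its introns, had 143, 189, 114, 122, 75.6 and 78.2 CPM and at -0.92 stayed short of that line at 24 h. Per length of transcript it was the most abundant of the ring, with a mean of 40.5 CPM per kb, against 10.6 for MCM6, the least abundant. At 6 and 12 h the ring did not move as 1 group: MCM4 and MCM6 lay above 0 h at both times, at 0.37 and 0.59 at 6 h, while MCM2, MCM3 and MCM7 lay below it. With the GC trend removed, MCM4 stood at 0.20 and MCM6 at 0.028 at 6 h. MCM2 then stood at -0.072, MCM3 at -0.13 and MCM7 at -0.037 at 6 h, and MCM5 was the highest at 0.34. At 12 h MCM6 (-0.098) and MCM7 (0.012) turned sign with that trend removed. The GINS genes, CDC45L and MCM10, which join the ring to the fork, stayed within 2-fold, between 0.26 and 0.64 at 3 h and between -0.65 and -0.05 at 24 h.

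The CDC7 kinase, which fires licensed origins, and its activator DBF4 had higher CPM from 6 h on than at 0 h. CDC7 (chromosome 1) had 5.39 CPM at 0 h, 5.81 at 3 h, 16.9 at 6 h, 15.1 at 12 h, 8.16 at 24 h and 12.0 at 48 h, a ratio of 3.13 at 6 h (2.39 to 4.14). DBF4 (chromosome 7) had 2.96, 2.27, 5.74, 6.82, 4.37 and 8.51 CPM from counts of 39, 32, 77, 93, 90 and 128, and its ratio at 48 h was 2.87 (1.99 to 4.23). For both genes the 4 libraries from 6 h on lay above the first 2 in CPM. With the GC trend removed, CDC7 stood at 0.38 at 6 h, 0.43 at 12 h, -0.20 at 24 h and -0.051 at 48 h. DBF4 then stood at -0.12 at 6 h, 0.24 at 12 h, -0.12 at 24 h and 0.48 at 48 h.

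**Figure D2:**
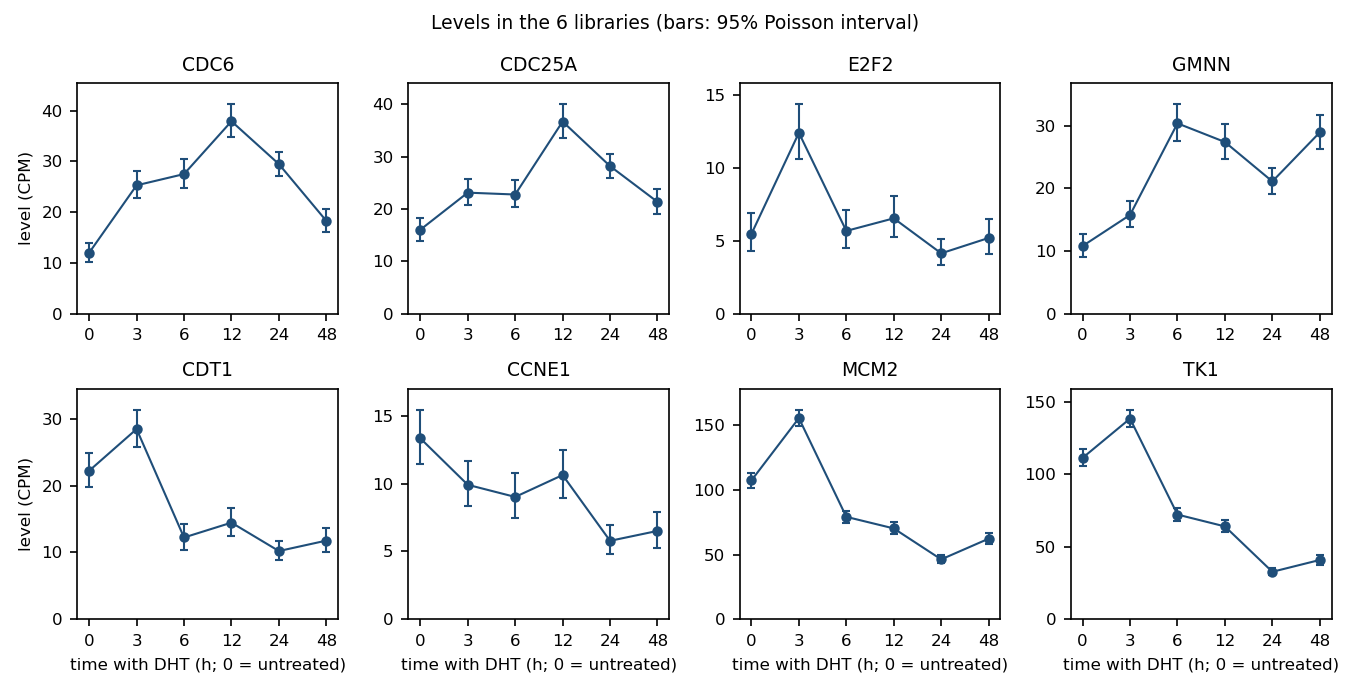
Level in CPM (vertical axis, from 0) of 8 members in each of the 6 libraries (horizontal axis, time in h); points are single libraries and bars their 95% Poisson interval of counting error. CDC6 and CDC25A peak at 12 h with 37.9 and 36.7 CPM, E2F2 peaks at 3 h, GMNN stays up to 48 h, and CDT1, MCM2 and TK1 drop after 3 h, while CCNE1 is below 0 h in each DHT library. Levels are drawn without removal of the GC trend.

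Of the G1/S control genes, both E2F genes were highest at 3 h, CDC25A was highest at 12 h and CCNE1 was below 0 h throughout. E2F2 (chromosome 1), an activator of replication genes, had 5.46 CPM at 0 h, 12.4 at 3 h, 5.67 at 6 h, 6.53 at 12 h, 4.13 at 24 h and 5.18 at 48 h, with a ratio of 2.27 at 3 h (1.72 to 3.03). The 3 h library lay above the other 5, which ran from 4.13 to 6.53 CPM. E2F1 (chromosome 20), of the same family, had 18.6, 35.9, 23.5, 26.1, 17.1 and 17.4 CPM, a ratio of 1.93 at 3 h (1.65 to 2.26) that left it just short of 2-fold at 0.91. CDC25A (chromosome 3), the phosphatase that activates the kinase of cyclin E, had 16.01, 23.1, 22.7, 36.7, 28.2 and 21.3 CPM. Its ratio at 12 h was 2.29 (1.95 to 2.70). CCNE1 (chromosome 19), which encodes cyclin E1, had 13.4, 9.92, 9.02, 10.6, 5.78 and 6.51 CPM, with a ratio of 0.433 at 24 h (0.340 to 0.549).

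The line described as cyclin E2, which has no symbol in the table and whose chromosome was not found, had 35, 26, 86, 80 and 110 counts at 0, 3, 6, 24 and 48 h. On the CPM scale these were 2.66, 1.84, 6.41, 3.89 and 7.31, with changes of -0.36 at 3 h, 1.02 at 6 h, 0.42 at 24 h and 1.18 at 48 h. It is not counted among the members.

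Of the 10 polymerase, primase and RPA genes, 6 lay above 0 h at 3 h (median 0.10) and 8 below it at 24 h (median -0.43). PRIM2 (chromosome 6), the large subunit of the primase that starts each new strand, had 5.24 CPM at 0 h, 7.58 at 3 h, 18.5 at 6 h, 14.8 at 12 h, 8.79 at 24 h and 7.91 at 48 h. Its ratio of 3.53 at 6 h (2.70 to 4.68) was the largest of the members at that time. POLE2 (chromosome 14), the second subunit of polymerase epsilon, had 6.53, 4.25, 14.3, 12.3, 6.51 and 7.24 CPM, lowest at 3 h and highest at 6 h, where it was barely past 2-fold at 1.03. The catalytic subunit POLE had 80.9, 80.3, 69.8, 68.1, 53.4 and 54.4 CPM, and POLD1, the catalytic subunit of polymerase delta, had 50.8, 54.8, 29.3, 35.6, 30.5 and 37.0. Both stayed within 2-fold, as did the single-strand binding genes RPA1, RPA2 and RPA3, at -0.46, -0.41 and -0.16 at 24 h. RPA1 had 259 CPM at 0 h, 276 at 3 h, 223 at 6 h, 223 at 12 h, 188 at 24 h and 159 at 48 h, and RPA2 had 43.7, 56.8, 53.02, 42.5, 32.6 and 27.1, both lowest at 48 h.

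Clamp and lagging-strand genes differed from each other. PCNA, the sliding clamp, had 53.1, 58.5, 71.4, 72.3, 50.8 and 61.7 CPM and never left the range of -0.06 to 0.44. FEN1 (chromosome 11), the nuclease that trims the flaps of Okazaki fragments, had 27.3, 41.0, 38.8, 48.1, 42.6 and 38.3 CPM; each DHT library was above 0 h, by at most 0.80 at 12 h. LIG1 (chromosome 19), which seals those fragments, had 20.6, 28.9, 18.2, 17.2, 8.79 and 11.2 CPM, with a ratio of 0.428 at 24 h (0.352 to 0.518). The loader subunit RFC3 (chromosome 13) had 7.97, 7.94, 20.1, 14.4, 9.91 and 13.7 CPM, a ratio of 2.53 at 6 h (2.01 to 3.20). RFC2, RFC4 and RFC5 stayed within 2-fold at each time, RFC2 with 34.7, 47.3, 36.9, 35.1, 28.5 and 22.5 CPM.

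Among the genes of deoxynucleotide supply, TK1 had the largest decrease of any member at 24 h, though PRIM1 stood lower with the GC trend removed (-1.22, against -1.17 for TK1). TK1 (chromosome 17), the thymidine kinase of dividing cells, had 111 CPM at 0 h, 139 at 3 h, 72.3 at 6 h, 64.1 at 12 h, 32.7 at 24 h and 40.9 at 48 h. The ratio was 1.24 at 3 h (1.16 to 1.33), 0.293 at 24 h (0.267 to 0.322) and 0.367 at 48 h (0.333 to 0.403). With the GC trend removed, TK1 stood at 0.36 at 3 h, -0.13 at 6 h and -0.39 at 12 h. RRM2 (chromosome 2), the S phase subunit of ribonucleotide reductase, had 14.6, 26.1, 21.4, 31.8, 14.5 and 18.2 CPM and was past 2-fold at 12 h, with a ratio of 2.17 (1.83 to 2.59). Its partner RRM1 had 70.9, 83.1, 99.0, 102, 69.2 and 75.96 CPM and stayed within 2-fold, as did TYMS, which makes thymidylate, at 45.8, 58.6, 50.2, 50.6, 28.4 and 34.0 CPM. DUT, which removes dUTP, lay between -0.44 and 0.44. The chromatin assembly genes CHAF1A and CHAF1B, which place histones on new DNA, stood at 0.28 and 0.30 at 3 h and at -0.77 and -0.96 at 24 h. CHAF1A had 45.5, 55.6, 36.9, 39.9, 26.2 and 32.7 CPM. CHAF1B, at 38.4, 47.5, 32.96, 30.5, 19.2 and 21.0 CPM, was the member nearest to the 2-fold line from outside at 24 h, and MCM3 at -1.04 the nearest from inside.

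Some of these counts may hold reads of other transcripts, since the use of strand is not given in the sources used here. By RefSeq, 8 members share their locus with another protein-coding gene (MCM7, TYMS, GINS2, ORC1L, RFC5, PRIM2, RPA3 and CHAF1A), and 11 have pseudogenes that carry their name, among them DUT with 8, PCNA with 4 and RRM2, RPA2 and DBF4 with 3 each. The values of those genes are uncertain to that extent.

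The changes of the members followed the GC content of their transcripts, as did those of all genes. Across the 45 members the change correlated with GC content at r = 0.301 at 3 h, -0.741 at 6 h, -0.661 at 12 h, -0.549 at 24 h and -0.627 at 48 h. Across all measured genes with a GC value, 11590 of them (11030 at 12 h), r was 0.231, -0.740, -0.619, -0.517 and -0.560. The points of each value share 2 libraries, and genes are not independent replicates. The 10 members that were higher at least once had a median GC content of 42.9%, the 7 that were lower had 58.1%, and the other 28 had 48.2%. With the trend over all genes subtracted, the median of the members was 0.40 at 3 h with 41 of 45 above 0, 0.028 at 6 h, 0.13 at 12 h, -0.36 at 24 h with 35 of 45 below 0, and -0.25 at 48 h. The direction at 3 h and at 24 h was thus the same with and without the trend, and the median at 6 h was 0.028 without it.

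Many single calls were lost with the trend subtracted. Then 0 members were at least 2-fold higher at 6 h, where CDC6 stood at 0.74, GMNN at 0.89, PRIM2 at 0.91, RFC3 at 0.76, CDC7 at 0.38 and POLE2 at 0.31. At 12 h CDC6 (1.26) and CDC25A (1.19) were still past 2-fold, and CDC7 (0.43), GMNN (0.83), PRIM2 (0.73) and RRM2 (0.51) were not. At 24 h CDC6 stood at 1.09 and TK1 at -1.17, both still past 2-fold, against -0.73 for MCM2, -0.83 for MCM3, -0.60 for LIG1, -0.82 for CCNE1 and -0.39 for CDT1. PRIM1 (-1.22) and GINS1 (-1.09) were then past 2-fold as well, from -0.66 and -0.65 before. At 48 h GMNN stood at 1.01, and DBF4 at 0.48, CDC7 at -0.051, TK1 at -0.95 and ORC1L at -0.87. At 3 h both calls remained, with CDC6 at 1.13 and E2F2 at 1.05. Under median of ratios and TMM scaling, CCNE1, CDT1, LIG1 and MCM3 also came short of 2-fold at 24 h and POLE2 at 6 h, the last also with the deposited denominator.

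**Figure D3:**
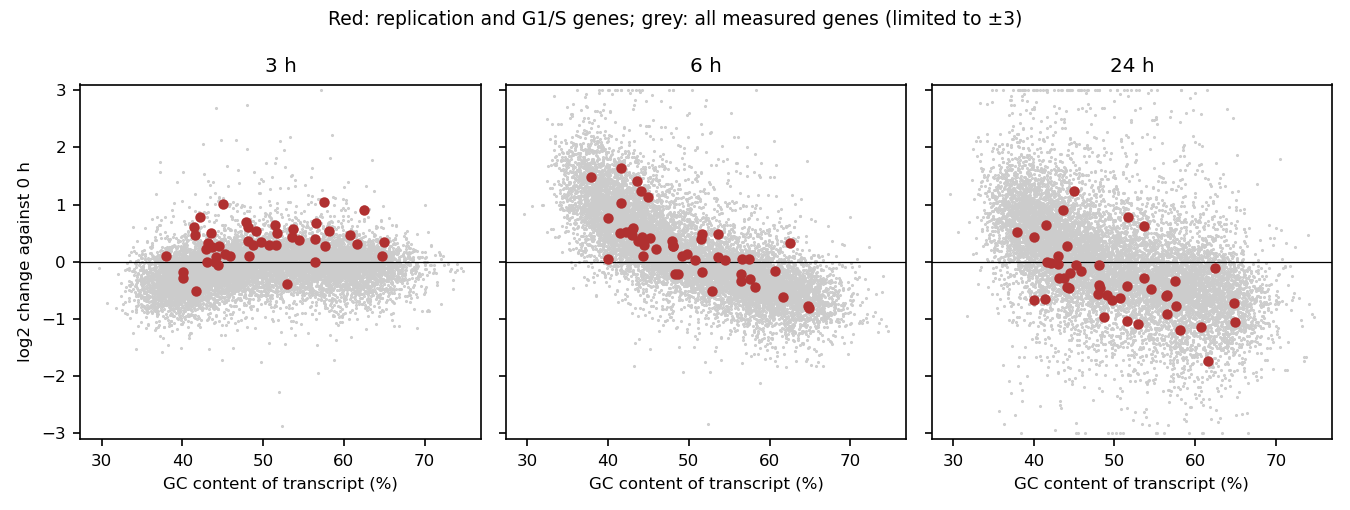
Change against 0 h (vertical axis, log2) by GC content of the transcript (horizontal axis, %) at 3, 6 and 24 h, for the 45 members (red) and all measured genes with a GC value (grey, limited to ±3). At 3 h most red points lie above 0 across the range of GC content, at 6 h they follow the falling trend of the grey points, and at 24 h they lie mostly in the lower part of it.

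Genes of the same pathway that are not members were counted from lists chosen with earlier results of these data known. For these lists and for the mitosis genes below, the GC trend was not removed and no other scaling was tried. Of 29 other origin and fork genes, 9 were at least 2-fold higher and 0 lower at 6 h, and 2 were higher and 4 lower at 24 h. As shares these were 31.0% at 6 h (15.3% of all measured genes), and 6.90% and 13.8% at 24 h (10.5% and 10.8%), with medians of 0.09 at 3 h and 0.16 at 24 h. ORC5 (ORC5L in the table), a subunit of the origin recognition complex, had 50.2 CPM at 24 h and 20.3 CPM at 0 h (1.26), and MCM8, a helicase of recombination, had 1.05. CHTF18, part of an alternative clamp loader, had -1.15, and the helicase gene RECQL4 -1.06. Of 19 further E2F, pocket protein and S phase control genes, 1 (5.26%) was higher at 24 h, RB1, the brake on E2F, with 20.03 CPM at 0 h, 13.96 at 3 h, 44.8 at 6 h, 52.2 at 12 h, 47.5 at 24 h and 54.0 at 48 h (1.20 at 24 h). In that list 1 (5.26%) was lower, the phosphatase gene CDC25B (-1.19), while CDKN2C, an inhibitor of D cyclin kinases, and SKP2, which targets CDK inhibitors for breakdown, stood at -0.96 and -0.92. Of 20 other nucleotide and chromatin supply genes 2 (10%) were higher at 24 h, the histone acetyltransferase HAT1 (1.68) and the p53-induced reductase subunit RRM2B (1.09), and 2 (10%) were lower, the purine synthesis genes IMPDH2 (-1.63) and ATIC (-1.18).

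Mitosis genes, which act later in the cell cycle, had a median near that of the members at 3 h and below it at 24 h. Their median over 32 genes was 0.33 at 3 h, as it was for the members. At 24 h it was -0.97, against -0.42 for the members, and 16 of 32 were at least 2-fold lower (10.8% of all measured genes), led by PTTG1 (-2.18), PLK1 (-2.09), CDC20 (-1.995) and KIF20A (-1.74), which act in chromosome separation, mitotic entry and cytokinesis. The difference between the lists was not tested, since each group has 1 library. All these comparisons share the 0 h library.

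**Figure D4:**
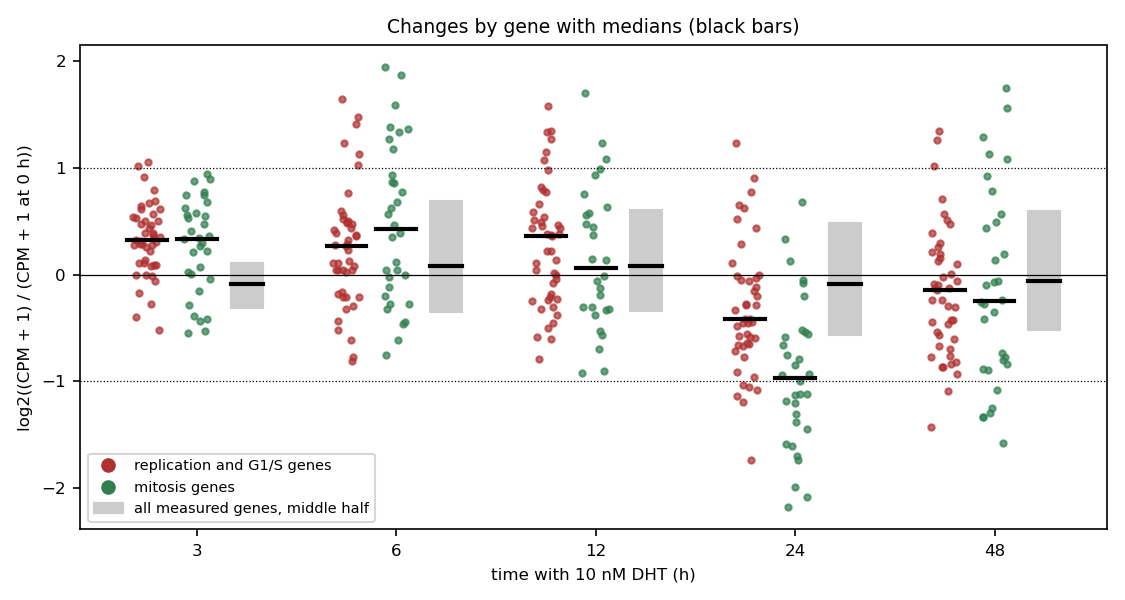
Change of each gene against 0 h (vertical axis, log2 of CPM + 1) at 5 times with DHT (horizontal axis, h) for the 45 members (red) and 32 mitosis genes (green, 28 at 12 h), with black bars at the medians; the grey box holds the middle of all measured genes, between the lower and upper quartile, and dotted lines mark 2-fold. The red and green medians are both near 0.33 at 3 h and separate at 24 h, where they are -0.42 and -0.97.

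The 48 h library was also set against the 24 h library, a comparison without the 0 h library. Of the 45 members, 35 (77.8%) lay higher at 48 h than at 24 h, against 59.9% of all measured genes, with medians of 0.19 and 0.08. Under both median of ratios and TMM scaling the count was 29 of 45, with medians of 0.116 and 0.096. The medians of all measured genes were then 0.004 and -0.017, and their share above the 24 h level was not counted. By the 2-fold rule 0 members were higher (1.53% of all measured genes) and 0 lower (0.185%). DBF4 (0.82), RFC4 (0.71) and PRIM1 (0.67) had the largest increases and CDC6 (-0.66), ORC1L (-0.45) and CDC25A (-0.39) the largest decreases. The 6 MCM ring genes stood between 0.04 (MCM5 and MCM6) and 0.42 (MCM2) at 48 h over 24 h. Under median of ratios and TMM scaling 3 of the 6 lay below their 24 h level, MCM6 the lowest at -0.036 and -0.057, and with the GC trend removed MCM6 did (-0.056), so the direction holds for MCM2, MCM3 and MCM4 alone. In the mitosis list 32 of 32 genes were higher at 48 h than at 24 h, 8 of them by at least 2-fold (1.53% of all measured genes), with a median of 0.80.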

How the data were processed

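The deposited table lists RefSeq transcripts with, per the file headers, a count of tags and an RPM value (ppm) for each of the 6 libraries; the authors scaled the RPM to a library denominator of which the listed transcripts hold 86.9 to 89.5%. The submitters' processing notes name build hg19; which aligner and counter were used, and whether strand was, is not given in the sources used here. A second header line gives the time of each pair of columns, which tied them to the samples. Of 18051 lines, 50 exact repeats were removed and counts were added per symbol. Levels are CPM over the listed transcripts; changes use a pseudocount of 1 CPM, which understates changes of low genes, and a mean count of at least 20. A count of 0 was taken to allow up to 3 counts, 0.146 to 0.228 CPM, a set value and not the upper limit of a Poisson interval. Ratios have exact conditional binomial intervals and levels exact Poisson intervals, at 95%, for counting error only, since no molecular identifiers are named. Mean counts of the members ran from 76.5 to 3267, and the interval of a log2 ratio reached 0.24 to either side at the median.

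GC content and lengths came from GENCODE v29 transcripts on GRCh38, found for 100% of the 45 members and 97.3% of measured genes; its trend was removed by a lowess curve (span 0.3). Chromosomes, names and promoters came from RefSeq on GRCh38.p14; distal chromosome 15 means from LCTL to the end. Alternatives were median of ratios scaling, TMM from edgeR 4.0.16, the deposited denominator, a pseudocount of 0.1, no minimum, a minimum of 100, the GC trend removed and, at 12 h, totals without the regions left out. The calculations were tested on simulated data. Members and lists were chosen with earlier results of these data known. Named are all members past 2-fold or nearest to it, the most abundant 3 of each role, CDC6, CCNE1, MCM2 and CDT1, and the 4 genes of each other list with the largest change at 24 h; further members stand as examples of their role. Python used numpy 2.4.6, scipy 1.17.1 and statsmodels 0.14.6.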

Additional observations from a re-analysis of the deposited data

How the results depend on the processing

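Of 26 member calls, 7 stayed past 2-fold under each alternative run: CDC6 at 3, 12 and 24 h, E2F2 at 3 h, CDC25A at 12 h, TK1 at 24 h and GMNN at 48 h. E2F2 and DBF4 could not be tried at a minimum mean count of 100, which left 43 members and 1 higher at 3 h. With the GC trend removed there were 0 higher at 6 h (median 0.028), 2 higher at 12 h, 3 lower at 24 h, and 1 higher and 0 lower at 48 h, and CDC7 at 48 h turned to -0.051. Median of ratios and TMM scaling each gave 2 higher and 2 lower members at 24 h. They moved the median of all genes at 24 h by 0.14 and 0.17, to 0.059 and 0.085. The members' median moved to -0.29 and -0.26, with 30 and 29 of 45 below 0 h. The share of all genes below 0 h was not counted under these scalings. The deposited denominator, a pseudocount of 0.1, no minimum count and, at 12 h, totals without chromosome 4 and distal chromosome 15 kept each count of members within 1.5 times its value. No paired analysis was possible because each group has 1 library; for the same reason no library could be left out of a group. Members under 100 counts, such as DBF4 with 39 at 0 h, carry the widest intervals.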

Other observations

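Compared per length of transcript, geminin and CDT1 stood close at 0 h and 3 h and apart from 6 h on. The ratio of GMNN to CDT1 in CPM per kb was 1.24 at 0 h, 1.42 at 3 h, 6.37 at 6 h, 4.86 at 12 h, 5.31 at 24 h and 6.31 at 48 h. GC content was 43.6% for GMNN and 64.9% for CDT1. The difference between their changes against 0 h (GMNN minus CDT1, log2) was 2.23 at 6 h, 1.96 at 24 h and 2.21 at 48 h, and with the GC trend removed it was 1.11, 1.04 and 1.37.

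The 6 subunits of the MCM ring, which enter it in equal number, did not have equal RNA levels per kb. At 0 h they ran from 9.38 CPM per kb for MCM6 to 48.2 for MCM7, and at 24 h from 7.67 to 25.4 for the same genes. The ratio of MCM7 to MCM6 was 5.14 at 0 h, 5.35 at 3 h, 2.69 at 6 h, 3.35 at 12 h, 3.31 at 24 h and 3.33 at 48 h. MCM7 shares its locus with AP4M1 and has a GC content of 56.5%, against 43.1% for MCM6. The difference between their changes against 0 h (MCM7 minus MCM6, log2) was -0.92 at 6 h and -0.63 at 24 h, and with the GC trend removed it was -0.065 and 0.068.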
